A study of Mus musculus with 6 samples.

Results

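Kinesins are motor proteins that use ATP to move along or take apart microtubules. Some build and divide the mitotic and meiotic spindle, others carry vesicles, organelles and mRNAs, and others move cargo inside cilia and flagella, including the tail of the sperm. In the testis the family works in dividing spermatogonia, in meiotic spermatocytes and in spermatids, which grow a flagellum and reshape the nucleus with arrays of microtubules.

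The kinesin genes described here were chosen by name: an mRNA probe was a member when its RefSeq accession belonged to a gene called Kif followed by a number, or Kifc followed by a number. This gave 47 of the 22464 mRNA probes on the array, which belonged to 38 of 19049 named mRNA genes. Of these genes, 32 had 1 probe and 6 had several (Kif1a, Kif1b, Kif2a, Kif5a, Kif21a and Kifc3). The genes were placed by known role into mitotic and spindle kinesins (12 genes), transport kinesins (16), ciliary, flagellar and spermatid kinesins (7) and other kinesins (3). For 3 further genes of these roles, Kif14, Kif28 and Kifc1, the table of names gave no probe. A probe whose accession the authors pair with Kif14 is on the array, but the table does not hold that accession and it was not counted.

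Whole testes of C57BL/6 mice were compared at 6 days after birth, called neonatal, and at 8 weeks, called adult. Testes of 21 neonatal and 6 adult mice were pooled into 3 groups per age, and each pool was read on its own array. Levels are given as log2 signal relative to the 75th percentile of the same array, so 0 is the 75th percentile, and they were compared only within a probe. Before scaling, this percentile lay at 2947, 2503 and 1385 on neonatal arrays 1 to 3, and on adult arrays 1 to 3 it lay at 1856, 1425 and 747.3. Replicates 1 and 2 of both ages were in 1 scan and replicate 3 of both ages in another, and the number of arrays limits the precision.

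The scanner's outlier flags touched many kinesin spots. Among the 47 probes they marked 11, 9 and 30 on neonatal arrays 1 to 3, and 8, 5 and 23 on adult arrays 1 to 3. With these spots left out, 33 probes of 29 genes kept at least 2 complete pairs of arrays and were tested. With the spots kept, 46 probes of 37 genes were tested, and 42 of the 47 were well above background on all 6 arrays. Values on single arrays are given below with flagged spots included, and the fold changes come from unflagged spots unless stated.

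The labelled tissue was checked against markers of testis cells. Of 11 probes for spermatid genes such as the protamines, 7 were tested and 7 were called higher in adult testis, against 12.6% of all mRNA probes. The summed signal of these probes, in multiples of the 75th percentile, was 0.99, 1.02 and 1.69 in the neonatal arrays and 1253, 1476 and 1721 in the adult arrays. For the spermatocyte list, 5 of 8 tested probes were called higher and 0 lower. Of the spermatogonial probes 5 of 11 were called lower and 0 higher, and of the Sertoli cell probes 2 of 4 were called lower and 0 higher, against 13.7% of all mRNA probes called lower. In such bulk tissue, fewer cells of a type and less RNA per cell cannot be told apart, and the part of cell makeup in the kinesin values was not tested.

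A call required a change of at least 5-fold with an adjusted p of at most 0.05. In adult testis 5 of 33 kinesin probes (15.2%) were called higher, against 12.6% of all mRNA probes tested, and 4 (12.1%) were called lower, against 13.7%. Both shares lay near those of all mRNAs. Kif2b, Kif9, Kif17, Kif6 and Kif3b were higher, and Kif26a, Kif12 and both probes of Kif1a were lower. By adjusted p alone, 9 kinesin probes rose and 14 fell, where 29.7% of all mRNA probes rose and 45.8% fell. The median log2 fold change was -0.37 over the 33 probes and -0.40 over the 15119 mRNA probes tested. Without the filter on dim probes the medians parted, at -0.37 and -0.003.

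With flagged spots kept, the same rule called 5 of 46 kinesin probes higher (12.8% of all mRNA probes) and 7 lower (15.4%). The additional lower probes belonged to Kif7, Kif5b and Kif1b. By adjusted p alone 13 rose and 25 fell, against 29.8% and 49.5% of all mRNA probes. Without the replicate block 30 of these 38 still passed, and the 8 that did not were Kif1c, Kif2c, Kif5c, Kif11, Kif20b, Kif23 and a probe each of Kif1b (NM_207682) and Kif2a (NM_001145779). The counts rested on replicates 1 and 2, because replicate 3 carried most of the flags. Without replicate 1, 12 kinesin probes could be tested, with 2 called higher and 1 lower. Without replicate 2, 11 could be tested, with 2 called higher and 0 lower. Of all mRNA probes, 847 were called higher and 981 lower of 8229 in the first of these fits. In the second, 853 were called higher and 920 lower of 8064. Without a block, leaving out neonatal replicate 1 or 2 gave 1 and 0 lower calls, and leaving out adult replicate 1 or 2 gave 2 higher calls each. Where the flagged spots stayed in, leaving out any replicate number gave 5 higher calls and 6 or 7 lower calls.

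**Figure D1:**
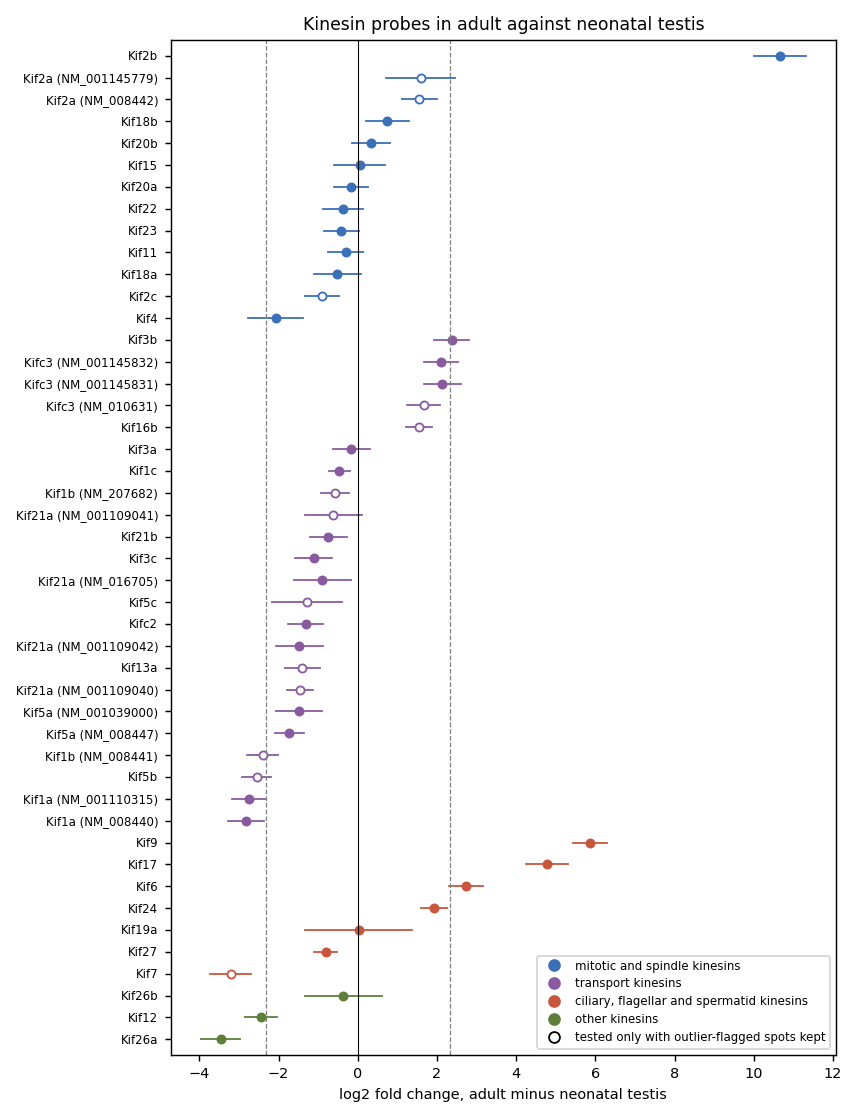
Log2 fold change of adult over neonatal testis for the 46 kinesin probes that could be tested, grouped by role. Points are limma estimates with 95% confidence intervals, open points were tested only with outlier-flagged spots kept, dashed lines mark 5-fold, and Kif2b lies farthest to the right at 10.65 and Kif26a farthest to the left at -3.46.

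The roles differed in their medians, a difference that was not tested. The median log2 fold change was -0.24 over 10 tested probes of mitotic and spindle kinesins, -1.00 over 14 probes of transport kinesins and 2.33 over 6 probes of ciliary, flagellar and spermatid kinesins. Keeping the flagged spots, these medians were -0.17, -1.15 and 1.92. Each median is over members that passed the filters, not over all members.

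Among the mitotic and spindle kinesins the change in Kif2b stood far from the rest. Kif2b belongs to the kinesin-13 group, which takes microtubules apart at their ends instead of walking along them. Its probe (NM_028547, gene at chr11:91575286-91577555, GRCm38.p6) read -6.40, -6.21 and -4.87 on the neonatal arrays, in the order of the replicates, and 4.63, 4.68 and 5.17 on the adult arrays. All adult arrays were far above all neonatal arrays, and all 6 values were well above background and unflagged. The estimated change was 10.65 in log2 (SE 0.24, adjusted p = 0.000101). Over the alternatives it lay between 9.05 and 11.13.

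The other kinesin-13 genes of this group moved less. Kif2a, which works in spindles and in neurons, was tested only with flagged spots kept. Its probe NM_008442 read 1.06, 1.18 and -0.34 in the neonatal arrays and 2.40, 2.60 and 1.56 in the adult arrays, all flagged, with no overlap between the ages. The estimated change was 1.56 in log2 (SE 0.16, adjusted p = 0.00114). Its other probe, NM_001145779, read 1.01, 0.97 and -1.98 in neonatal and 2.02, 2.26 and 0.47 in adult testis, with every spot flagged except neonatal replicate 3. Here the ages overlapped, and the estimate was 1.58 (SE 0.32, adjusted p = 0.0105). Kif2c, which corrects the attachment of chromosomes to the spindle, read 3.15, 3.30 and 4.42 in the neonatal arrays and 2.22, 2.71 and 3.26 in the adult arrays, with every spot flagged except neonatal replicate 1. The ages overlapped between the scans, but the adult array was lower in each of the 3 pairs, and with flagged spots kept the estimated change was -0.89 in log2 (SE 0.16, adjusted p = 0.00635). So with flagged spots kept Kif2a and Kif2b rose and Kif2c fell, by amounts that differed widely. Without the replicate block neither Kif2c (limma adjusted p = 0.108) nor the Kif2a probe NM_001145779 (0.175) passed, while the Kif2a probe NM_008442 did (0.0287).

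No mitotic or spindle kinesin was called lower in adult testis by limma (0 of 10 tested, against 13.7% of all mRNA probes), and the methods' t-test gave 0 as well. At an unadjusted limma p of at most 0.05, and at any size, 1 fell, the chromosome-arm motor Kif4. Kif4 (NM_008446) read -2.37, -2.26 and -2.49 in the neonatal arrays and -4.75, -4.03 and -4.94 in the adult arrays, neonatal replicate 3 being flagged. Every adult value was below every neonatal value. From the 2 unflagged pairs it changed by -2.08 in log2 (SE 0.22, adjusted p = 0.00462), which is 4.22-fold and short of 5-fold. With quantile normalization, the shift to the median or the authors' log2 values it passed 5-fold, at -2.35, -2.34 and -2.46. It passed the methods' t-test neither before nor after adjustment, nor the limma fit without the filter on dim probes (adjusted p = 0.0708).

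Among the motors that build and divide the spindle, Kif11, Kif15, Kif18a, Kif18b, Kif20b, Kif22 and Kif23 gave estimates under 2-fold, from 2 pairs each. Larger changes are not excluded. The 95% confidence intervals ran from -1.12 to 0.07 for Kif18a and from 0.20 to 1.29 for Kif18b. Kif11, which pushes the spindle poles apart, gave a change of -0.31 in log2 (SE 0.14, adjusted p = 0.140), and Kif15, which can take over that task, gave 0.04 (SE 0.21, adjusted p = 0.858). Kif18a, which dampens chromosome movement at the spindle equator, gave -0.52 (SE 0.19, adjusted p = 0.0855). Its relative Kif18b passed the adjusted p but not 5-fold, at 0.74 (SE 0.17, adjusted p = 0.0317), and no longer passed with flagged spots kept (0.52, adjusted p = 0.0782), the adjusted p over all its alternatives lying between 0.00706 and 0.348. Kif22, another motor on chromosome arms, gave -0.37, and the cytokinesis motors Kif23 and Kif20b gave -0.42 and 0.33, none with an adjusted p of at most 0.05.

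The probes of Kif11, Kif15, Kif18a, Kif18b, Kif20b, Kif22 and Kif23 all had a flagged spot in neonatal replicate 3, so their fits rested on replicates 1 and 2. With flagged spots kept, Kif11 (-0.40), Kif18a (-0.71) and Kif23 (-0.39) passed the adjusted p downward, and Kif20b (0.37) upward, and of these only Kif18a passed without the replicate block as well. Kif20a, which brings Aurora B to the middle of the dividing cell, was well above background on neonatal replicate 3 alone and at the floor of -7.22 on the other arrays, and its log2 fold change of -0.17 (adjusted p = 0.361) has little to measure.

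Transport kinesins were more often lower than higher in adult testis by adjusted p, though few passed 5-fold. Of 14 tested probes 10, of 7 genes, fell and 3 rose by adjusted p, against 45.8% and 29.7% of all mRNA probes, and 1 passed in neither direction. The methods' t-test after adjustment left 5 that fell, and the fit without the filter on dim probes 6 of 15. Without replicate 1, 1 of 4 tested fell, and without replicate 2, 2 of 3. Leaving out neonatal replicate 1 or 2 gave 3 of 5 and 2 of 4, and leaving out adult replicate 1 or 2 gave 4 of 8 each. At 5-fold 2 (14.3%) were called lower, near the 13.7% of all mRNA probes, and 1 higher. When flagged spots were kept, 16 of 23 fell and 5 rose (49.5% and 29.8% of all mRNA probes), and 4 were called lower and 1 higher (15.4% and 12.8%). Of the 16 that fell, 13 did so without the replicate block, and with flagged spots kept and replicate 1 or 2 left out, 11 and 12 did.

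The called transport kinesin that fell was Kif1a, the carrier of synaptic vesicle precursors in axons (chr1:93015455-93102039, GRCm38.p6). Its probe NM_008440 read 1.63, 1.76 and 2.16 in the neonatal arrays and -1.11, -1.12 and -0.74 in the adult arrays. The probe NM_001110315 read 1.73, 1.57 and 2.31 in neonatal and -1.05, -1.16 and -0.60 in adult testis. Both probes were lower on every adult array than on any neonatal array, and on both neonatal replicate 3 was flagged. The log2 fold changes were -2.81 (SE 0.14, adjusted p = 0.000949) and -2.75 (SE 0.14, adjusted p = 0.000932), from 2 pairs each.

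Kif1b, which carries mitochondria or synaptic vesicle precursors depending on its isoform, gave unlike results with its 2 probes. The probe NM_008441 read 1.23, 1.26 and -0.12 in the neonatal arrays, all flagged, and -1.28, -1.32 and -2.25 in the adult arrays. The probe NM_207682 read 2.05, 1.95 and 1.49 in the neonatal and 1.37, 1.58 and 0.80 in the adult arrays, all flagged. For the first the ages did not overlap, for the second they did. With flagged spots kept the log2 fold changes were -2.41 (SE 0.15, adjusted p = 0.000236) and -0.58 (SE 0.13, adjusted p = 0.0152). The difference between the probes was not tested, and without replicate 2 the first gave -2.32, just under 5-fold.

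Kif5 genes encode the heavy chains of conventional kinesin, which carries many cargoes toward the cell edge. Kif5b, the form found in most tissues, read 1.74, 1.52 and 1.07 in the neonatal arrays, all flagged, and -1.05, -1.00 and -1.30 in the adult arrays. No adult value reached a neonatal value, and with flagged spots kept the estimated change was -2.56 in log2 (SE 0.14, adjusted p = 0.000176). The neuronal form Kif5a fell without reaching 5-fold, by -1.73 (NM_008447, SE 0.13, adjusted p = 0.000780) and -1.49 (NM_001039000, SE 0.18, adjusted p = 0.00654). Kif5c, also neuronal, gave -1.29 (SE 0.32, adjusted p = 0.0207) with flagged spots kept. It read 0.81, 0.86 and -1.45 in neonatal and -0.98, -0.82 and -1.85 in adult testis, only adult replicate 2 being unflagged. The ages overlapped, and the difference was -1.73 in the scan of replicates 1 and 2 but -0.40 in the scan of replicate 3.

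Kinesin-II is built from Kif3a with Kif3b or Kif3c and drives transport into cilia and flagella as well as along other microtubules. Kif3b (NM_008444, chr2:153291395-153333390, GRCm38.p6) read 1.71, 1.73 and 1.74 in the neonatal arrays and 4.04, 4.13 and 4.19 in the adult arrays, with replicate 3 of both ages flagged. The adult arrays were all higher by more than the spread within an age. The estimated change was 2.37 in log2 (SE 0.14, adjusted p = 0.00125), which is 5.16-fold, and it slipped under 5-fold with the shift to the median (2.11), the authors' log2 values (2.13) and the normexp background correction (2.08).

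Its motor partners did not follow. Kif3a read 0.44, 0.48 and 1.02 in neonatal and 0.36, 0.22 and 0.92 in adult testis, neonatal replicate 3 being flagged, and the ages overlapped (log2 fold change -0.17, SE 0.15, adjusted p = 0.371). Kif3c read -3.43, -3.35 and -3.13 in neonatal and -4.44, -4.20 and -4.62 in adult testis. Its arrays did not overlap, and it fell by 1.11 on the log2 scale (SE 0.17, adjusted p = 0.00486). Kifap3, the subunit that binds cargo to kinesin-II, rose by 1.19 on that scale (SE 0.14, adjusted p = 0.00574). Thus within this complex Kif3b and Kifap3 were higher in adult testis, Kif3c lower, and Kif3a passed in neither direction.

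The remaining transport kinesins moved by less than 5-fold. Kifc3, a motor that runs toward the minus ends of microtubules at cell junctions, rose with 2 probes, by 2.13 (NM_001145831, SE 0.15, adjusted p = 0.00179) and 2.10 (NM_001145832, SE 0.14, adjusted p = 0.00158), and its last probe, NM_010631, gave 1.66 with flagged spots kept. Its neuronal relative Kifc2 fell (-1.32, SE 0.14, adjusted p = 0.00442). Kif16b, which moves early endosomes, rose with flagged spots kept (1.54, SE 0.12, adjusted p = 0.000441), while Kif13a, which carries the mannose 6-phosphate receptor, fell with them kept (-1.40, SE 0.16, adjusted p = 0.00163).

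Kif21a and Kif21b are kinesins of neurons that also restrain microtubule growth. The 4 probes of Kif21a gave -1.47 and -0.89 from unflagged spots and -1.34, -1.15, -1.45 and -0.61 with flagged spots kept, all lower in adult testis, and the probe at -0.61 did not pass (NM_001109041, adjusted p = 0.0930). Kif21b gave -0.74 (adjusted p = 0.0208), and Kif1c, which carries vesicles in many cell types, gave -0.46 (adjusted p = 0.0145), but its ages overlapped and without the replicate block the adjusted p was 0.287. Kif13b did not reach well above background anywhere, and so was not tested.

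Among the ciliary, flagellar and spermatid kinesins 3 of 6 tested probes were called higher in adult testis and 0 lower, against 12.6% and 13.7% of all mRNA probes. By adjusted p alone 4 rose and 1 fell, against 29.7% and 45.8%. Without replicate 1 or without replicate 2, only 4 could be tested and 1 was called higher. Of all mRNA probes, 847 of 8229 and 853 of 8064 were called higher in these fits.

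Kif9, a motor of the central apparatus of motile cilia and of the sperm tail, rose far past 5-fold (NM_010628, chr9:110476738-110525174, GRCm38.p6). It read -2.77, -2.71 and -2.32 in the neonatal arrays and 3.10, 3.13 and 3.52 in the adult arrays, with adult replicate 3 flagged. The ages were far apart, and the spread within each was far smaller than the distance. The estimated change was 5.86 in log2 (SE 0.14, adjusted p = 0.000238), from 2 pairs, and lay between 5.21 and 5.86 over the alternatives.

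Kif6, the other kinesin of the Kif9 group and likewise a gene of motile cilia, read -2.01, -1.84 and -2.19 in the neonatal arrays and 0.71, 0.90 and 0.44 in the adult arrays, with adult replicate 3 flagged (NM_177052, chr17:49615098-49909847, GRCm38.p6). Its adult arrays were all above its neonatal arrays. The estimated change was 2.73 in log2 (SE 0.14, adjusted p = 0.000935), and quantile normalization brought it to 2.20, under 5-fold.

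Kif17 transports cargo along cilia and dendrites and in male germ cells binds a coactivator of the transcription factor CREM (NM_010623, chr4:138262251-138301973, GRCm38.p6). It stood at the floor of -7.22 and was not well above background on the neonatal arrays, and it read -2.18, -2.91 and -2.25 in the adult arrays, all unflagged. Because the neonatal level is only a bound, adult testis was at least 25.6-fold higher (adjusted p = 0.000183). This bound sets the adult mean against the lowest signal well above background on each neonatal array, or against the floor where the floor is higher. It depends on how background is taken off, and with normexp the log2 fold change was 2.44, under the bound.

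Kif24, a centriolar motor that holds back the growth of cilia, rose without reaching 5-fold. It read -2.50, -2.44 and -2.15 in neonatal and -0.40, -0.65 and -0.28 in adult testis, with no flagged spot and no overlap (log2 fold change 1.92, SE 0.12, adjusted p = 0.000441). Kif19a, which trims the length of cilia, was well above background on only 1 neonatal and 2 adult arrays and gave 0.02 (SE 0.49, adjusted p = 0.967).

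Kif7 and its close relative Kif27 went the other way. Kif7, which organises the tip of the primary cilium, read -0.78, -0.69 and -1.32 in the neonatal arrays, all flagged, and -3.88, -3.57 and -4.96 in the adult arrays (NM_010626, chr7:79698098-79715772, GRCm38.p6). The adult arrays were all lower, and with flagged spots kept the estimated change was -3.21 in log2 (SE 0.19, adjusted p = 0.000224). Kif27 read -1.30, -1.42 and -0.82 in neonatal and -2.21, -2.12 and -1.64 in adult testis, without overlap or flags, and fell by 0.81 on the log2 scale (SE 0.11, adjusted p = 0.00329). Leaving out neonatal replicate 1 or 3, or adult replicate 1 or 2, brought its adjusted p to 0.0654, 0.0545, 0.0953 and 0.0925. Thus Kif9, Kif6, Kif17 and Kif24 were higher in adult testis, Kif7 was lower with flagged spots kept, and Kif27 was lower with less certainty.

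Of the other kinesins, Kif26a and Kif12 were called lower in adult testis, 2 of 3 tested, against 13.7% of all mRNA probes, and the call of Kif12 is not firm. Kif26a lacks motor activity and is known to restrain Ret signalling in enteric neurons (NM_001097621, chr12:112143974-112181747, GRCm38.p6). It read 1.57, 1.76 and 2.02 in the neonatal arrays and -1.75, -1.84 and -1.43 in the adult arrays, neonatal replicate 3 being flagged. The ages were well apart, and the estimated change was -3.46 in log2 (SE 0.16, adjusted p = 0.000767). With the methods' t-test after adjustment its p was 0.0554, within a range from 6.32e-05 to 0.0554 over the alternatives.

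Kif12, known from kidney tubules and pancreatic beta cells, read -5.01, -4.49 and -4.86 in the neonatal arrays and stood at the floor, not well above background, on all adult arrays (NM_010616, chr4:63157948-63172145, GRCm38.p6). Neonatal testis was at least 4.15-fold higher (adjusted p = 0.000417). This bound is under 5-fold, so the call of Kif12 rests on the floor, and its log2 fold change ran from -0.99 with normexp to -4.25 with no floor. Kif26b, which works in kidney development, read -2.84, -2.80 and -2.27 in neonatal and -4.18, -2.61 and -2.22 in adult testis, and the ages overlapped (log2 fold change -0.37, SE 0.35, adjusted p = 0.386).

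**Figure D2:**
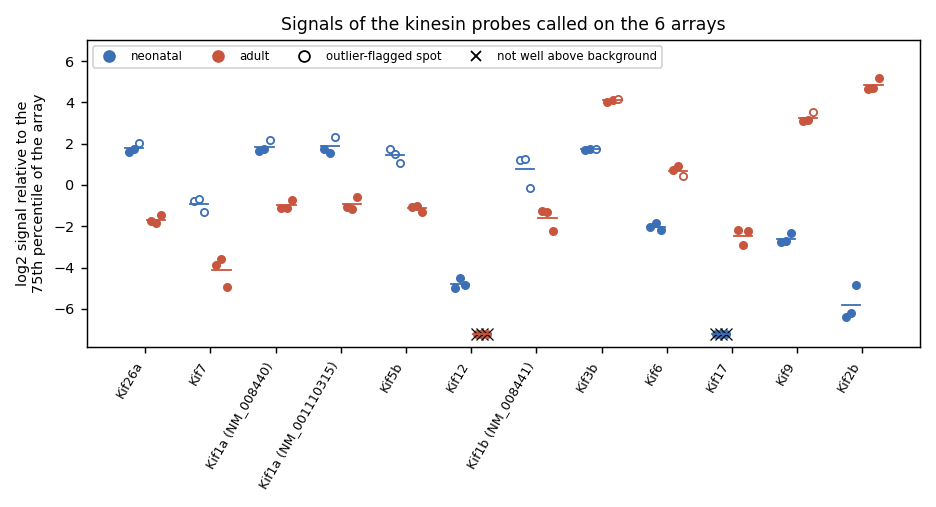
Log2 signal relative to the 75th percentile of the array for the 12 kinesin probes called with outlier-flagged spots kept, with 3 neonatal and 3 adult arrays each. Points are arrays, bars are means, open points are flagged spots and crosses mark values not well above background. In each of the 12 probes the neonatal and adult points do not overlap. The probes were called from these same arrays, so this separation follows from the choice and adds no support.

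The called kinesins differed between the ages in both scans. The calls were made from these same arrays, so the differences in the scan of replicates 1 and 2 follow from the call. Replicate 3 entered the fit only for Kif2b, Kif17 and Kif12. For the other called probes it held a flagged spot, which is included here. For the 5 higher probes, with flagged spots kept, the adult minus neonatal difference lay between 2.37 (Kif3b) and 10.96 (Kif2b) in the scan of replicates 1 and 2 and between 2.45 and 10.04 in the scan of replicate 3. For the 4 lower probes it lay between -3.46 (Kif26a) and -2.48 (Kif12) and between -3.46 and -2.36. The adult values of Kif12 all stood at the floor, so the floor sets the size of its differences. With the scan as a block the counts were 5 higher and 4 lower.

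Genes that work with kinesins were counted by lists. Of 13 tested probes for kinesin light chains and cargo adaptors, 2 (15.4%) were called higher and 1 (7.7%) lower, against 12.6% and 13.7% of all mRNA probes. Mapk8ip2, a scaffold that links cargo to kinesin-1, gave 4.94 (SE 0.28, adjusted p = 0.000360), the spermatid light chain Klc3 gave 2.84 (SE 0.11, adjusted p = 0.000169) and a probe of the widely expressed light chain Klc1 gave -2.37 (NM_001081959, SE 0.14, adjusted p = 0.00130). Other Klc1 probes gave -2.31 and -0.59. Klc3 read -1.51, -1.39 and -1.00 in neonatal and 1.28, 1.38 and 1.96 in adult testis, so that its ages did not overlap.

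Of 22 tested probes for mitotic partners of the spindle kinesins, 2 (9.1%) were called higher and 3 (13.6%) lower, not more than among all mRNA probes, and the median was -0.41. The Aurora kinases, which control several spindle kinesins, went in both directions: 2 probes of Aurkc, the form of germ cells, gave 3.58 and 3.53 (adjusted p = 0.000728 and 0.000660) and its other probe 1.30 (adjusted p = 0.00154), Aurka gave 1.22 (adjusted p = 0.0425), and Aurkb gave -3.36 (adjusted p = 0.00990). Tpx2, which brings Kif15 and Aurora A to the spindle, gave -2.50 (adjusted p = 0.000383) with the probe that fell most. Of 15 tested probes for intraflagellar transport, the cargo train that kinesin-II pulls, 12 rose and 1 fell by adjusted p (29.7% and 45.8% of all mRNA probes), with 3 called higher (20.0%, against 12.6%), 0 lower and a median of 1.34. The called genes were Ift122 (2.93, adjusted p = 0.00101), Ift74 (2.80, adjusted p = 0.000915) and Ift80 (2.44, adjusted p = 0.00129).

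Promoters were read to show sequence features that kinesins of a role share. RefSeq promoters on GRCm38.p6, from 250 bases before to 50 after a start, were held for 30 of the 38 kinesin genes (34 windows), and 4 motifs were searched on both strands. The letters TTTGAA, the core of the cell-cycle homology region of late cell-cycle genes, were in 17.9% of all 32851 promoters and in 8 of 12 windows of mitotic and spindle kinesins, those of Kif2c, Kif4, Kif11, Kif15, Kif18b, Kif20b, Kif22 and Kif23. They were in 1 of 12 windows of transport kinesins and 1 of 7 of ciliary, flagellar and spermatid kinesins. CCAAT was in 37.4% of all promoters and in 6 of 12 mitotic windows, so near the share of all promoters. Of the 8 genes with TTTGAA, Kif4 fell and Kif18b rose by adjusted p. Keeping the flagged spots, Kif2c, Kif4, Kif11 and Kif23 fell, Kif20b rose and Kif18b no longer passed, but without the replicate block only the fall of Kif4 stayed. These stretches stand just before a RefSeq start of 3 mitotic kinesins, Kif11 (chr19:37376351-37376380, plus strand), Kif15 (chr9:122951050-122951079, plus strand) and Kif22 (chr7:127042421-127042450, minus strand). For Kif22 that start lies inside the gene span. The 3 genes share the motif on the reverse strand at position -19, -19 and -17 from the start, with motif letters in capitals.
Kif11: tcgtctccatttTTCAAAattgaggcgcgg
Kif15: tggggcgccaaaTTCAAAtctgcggccatc
Kif22: ggggccccggtaaTTCAAAagagagaagcg

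GTTGCC, the core of the X-box read by RFX factors at genes of cilia, was in 12.5% of all promoters, in 4 of 7 windows of ciliary, flagellar and spermatid kinesins (Kif9, Kif17 and Kif24), in 4 of 12 transport windows and in 3 of 12 mitotic windows. TGACGTCA, the full cAMP response element read by CREB and CREM, was in 1.79% of all promoters and in 3 of 34 kinesin windows, those of Kif17, Kif5c and Kif18a. In Kif17 both motifs stood together, TGACGTCA from position -86 and GTTGCC from -73. Kif18a, which fell with flagged spots kept, holds both as well, from 31 and -70. Stretches that hold GTTGCC stand before a RefSeq start of Kif17 (chr4:138262154-138262183, plus strand), Kif9 (chr9:110476955-110476984, plus strand) and Kif24 (chr4:41464849-41464878, minus strand), which all rose in adult testis. For Kif9 and Kif24 that start lies inside the gene span, and so does the stretch. They are set beside that of the cytokinesis motor Kif23 (chr9:61946868-61946897, minus strand), which did not rise, with motif letters in capitals. The motif did not go with a rise throughout: Kif1a, which was called lower, and Kif3c, which fell, hold it too, as do Kif3a, which did not pass the adjusted p, Kif18a, which fell with flagged spots kept, and Kif2a and Kif16b, which rose with them kept. Such a match describes letters only.
Kif17: attccgtcctgTGACGTCAcggagGTTGCC
Kif9: tgcaggcttcctGTTGCCatggcgactgtg
Kif24: cgcgttcgaactggcgcttgtggcGTTGCC
Kif23: tggcgcccttggGTTGCCaaggagacgagc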

How the data were processed

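RNA of whole testis, 3 pools per age, was labelled with Cy3 and hybridised by the authors to 1-colour arrays, read with Agilent Feature Extraction 10.5.1.1 (named in the submitters' processing notes). The deposited scanner output gives, for each spot, an intensity less its background, with nothing done to make arrays alike. Their deposited log2 values, on each array 99.8% equal within 0.001 to log2 of the signal floored at 5 minus a constant, were an alternative.

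Spots of a probe were averaged, control and outlier-flagged spots left out, each array scaled to its 75th percentile, a common floor set (-7.22 in log2) and log2 taken. A probe that cleared the background on 1 or more arrays and had 2 or more complete pairs entered a limma fit (3.58.1, R 4.3.3) blocked on the replicate number, with Benjamini-Hochberg adjustment over all lncRNA and mRNA probes tested. Tables and figures used Python 3.11.15, pandas 2.3.3, numpy 2.4.6 and matplotlib 3.10.9. RefSeq accessions were named with a GRCm38.p6 table, which matched 21901 of 22464 mRNA probes (97.5%). Probes of a gene were kept apart.

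Deviations of same-numbered arrays from their age means correlated across probes at 0.341, 0.248 and 0.587, each above 0.1. Arrays of the same scan with different numbers reached 0.323 and 0.286, also above 0.1. Arrays of different scans lay between -0.492 and -0.377. A pairing by number and an effect of the scan therefore cannot be told apart. The block follows the paired test of the methods. Between ages, arrays correlated at 0.644 to 0.700, and within an age at 0.962 to 0.987.

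Alternatives changed the floor, scaling, background correction, filter, outlier flags, block, prior, fold and test, and left out replicates. The kinesin members and lists were chosen with earlier results of these data known. Every member is accounted for, with values on every array for those called and log2 fold changes for the rest that were tested, and up to 4 called probes with the largest change are named from each partner list. Array values of uncalled members were added after they were seen. Protein sequences were not used here.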

Additional observations from a re-analysis of the deposited data

How the results depend on the processing

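The counts of kinesin calls moved with the replicates used, the outlier flags and the fold threshold. With flagged spots kept, 7 kinesin probes and 4 transport kinesin probes were called lower. With the authors' log2 values, which leave no flagged spot out, 8 and 4 were lower, with 1 mitotic and spindle probe and 3873 mRNA probes. At 2-fold, 8 kinesin probes were higher and 10 lower, with 1 mitotic and spindle probe and 7 transport probes lower, and 3530 mRNA probes higher and 5528 lower. Quantile normalization called 1 mitotic and spindle probe and 3246 mRNA probes lower, and the shift to the median called 1 mitotic and spindle probe lower. The methods' t-test after adjustment called 1265 mRNA probes lower. Main counts were 1908 mRNA probes higher and 2075 lower. The cause was not tested.

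Without the replicate block, 5 kinesin probes were called higher and 4 lower, and with flagged spots kept and no replicate block, or with the scan as a block (chosen after seeing the data), 7 were lower. No kinesin call at 5-fold changed with the block. By adjusted p alone, Kif1c no longer passed without it in the main fit (0.287), and with flagged spots kept 30 of 38 still passed. The next ranges are over the fits that left out a replicate or an array, with flagged spots left out as well. Kinesin probes called higher numbered 2 to 5 and lower 0 to 5. Mitotic and spindle probes called lower numbered 0 to 1, transport probes lower 0 to 2, and ciliary, flagellar and spermatid probes higher 1 to 3. Among mRNA probes, 847 to 1921 were called higher and 920 to 2151 lower. Most of these fits test fewer probes. With flagged spots kept, leaving out a replicate gave 5 higher and 6 or 7 lower kinesin probes, and the other calls were not counted there.

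The median over all mRNA probes was -0.40, and -0.89 with quantile normalization, -0.65 with the shift to the median and -0.84 with the authors' values. The kinesin median was -0.37, and -0.90, -0.63 and -0.88 with the same alternatives. With normexp the mRNA median was -0.29 and the kinesin median -0.66. The share of higher calls among mRNA calls was 47.9%, and 35.4% with quantile normalization, 37.0% with the authors' values and 53.9% with the methods' t-test after adjustment. Over the fits that left out a replicate or an array it ran from 34.0% to 60.8%, so which direction held more calls was not settled. Alternatives were followed for the 26 kinesin probes that passed the adjusted p or were called with flagged spots kept. Of their 489 values, 476 kept their direction and side of the call, 9 slipped below it and 4 passed it. None of them changed direction. The probes were chosen for passing in these same data, and many alternatives reuse the same pairs. A change of direction was therefore unlikely from the start. Most of these probes lie under 5-fold, so keeping their side of the call says little of them. Of the 466 values that have an adjusted p, 40 were over 0.05. The transport kinesins that fell by adjusted p numbered 10 of 14 in the main fit. They numbered 5 of 14 with the methods' t-test and 6 of 15 without the filter on dim probes. Over the fits that left out a replicate or an array they numbered 1 to 9, with 3 to 14 tested. With flagged spots kept and a replicate left out they numbered 11 to 15 of 23. Of the other kinesins, Kif15 turned from 0.04 to -0.09 with flagged spots kept, and Kif3a from -0.17 to 0.04 without the replicate block. The lowest signal well above background, 6.09 to 24.0 over the arrays, limits what can be said of Kif12, Kif13b, Kif17, Kif19a and Kif20a.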

Other observations

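Kinesin genes with other names were measured as well. Cenpe, the motor that carries chromosomes from the spindle poles to the equator, read 2.82, 2.96 and 3.20 in the neonatal arrays and 3.60, 3.53 and 3.84 in the adult arrays. The ages did not overlap, replicate 3 of both was flagged, and the estimated change was 0.67 in log2 (SE 0.15, adjusted p = 0.0283). Kifc5b, a close copy of Kifc1 whose probe may not tell the genes apart, gave 0.00 with flagged spots kept (SE 0.15, adjusted p = 0.997). No probe of Stard9 was named.

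The tracks and the opposing motor of kinesins showed large changes in single genes. Of 14 tested tubulin probes 1 was called higher and 2 lower, against 12.6% and 13.7% of all mRNA probes. Tuba8 rose by 8.48 on the log2 scale (SE 0.37, adjusted p = 0.000694), from -3.93, -4.97 and -4.17 in the neonatal arrays to 3.96, 4.11 and 4.41 in the adult arrays, of which the last was flagged. Tubb2b gave -5.52 (SE 0.20, adjusted p = 0.000498) and Tuba1b gave -2.53 (SE 0.18, adjusted p = 0.000610). Of 14 tested probes of cytoplasmic dynein and dynactin, which move toward the minus ends, 1 was called higher and 1 lower. The dynein light chain Dynlrb2 read -3.40, -1.05 and -2.84 in neonatal and 5.28, 5.19 and 5.88 in adult testis (7.88, SE 0.58, adjusted p = 0.000699). Dync1li1 was not well above background in adult testis, and neonatal testis was at least 14.4-fold higher (adjusted p = 0.000417).

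Markers of other cell types, not all of them cells of the testis, moved too. For comparison, 45.8% of all mRNA probes fell and 29.7% rose by adjusted p, and 13.7% and 12.6% were called lower and higher. Endothelial probes fell in 10 of 10 tested cases by adjusted p, with 3 called lower. Of 7 tested peritubular myoid probes 5 fell by adjusted p and 0 were called, and with flagged spots kept 2 of 9 were called lower. Of the 6 tested Leydig cell probes 0 were called, with 2 up and 2 down by adjusted p, but with flagged spots kept 2 of 10 were called higher, Hsd3b6 (6.18) and Insl3 (3.49). Of the 6 tested macrophage probes 0 were called. Of 8 tested erythroid probes 5 rose and 2 fell by adjusted p, and 1 was called lower (2 of 9 with flagged spots kept). Their summed signal, in multiples of the 75th percentile, nevertheless went from 73.0, 95.9 and 105 in the neonatal arrays to 16.8, 35.0 and 31.6 in the adult arrays. Of 9 tested probes for epididymal epithelium, 4 were called higher in adult testis, Cst8 and both Defb41 probes among them, and 5 of its 12 probes were not well above background in any neonatal array and 3 in any adult array. Within the neonatal age, the epididymal gene Crisp1 read 2.43, -4.34 and 2.51 in replicates 1 to 3, so that replicate 2 stood apart and replicate 3 was flagged, against -4.23, -4.37 and -5.30 in the adult arrays. Crisp1 was singled out after its values were seen, and its bearing on the kinesin values was not tested.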
